A study of Mus musculus with 145 samples.

Results

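The serpins are a superfamily of proteins that share one fold, and most of them inhibit proteases. All probe sets were taken whose single annotated gene symbol begins with Serpin, a clade letter from a to i and a number, and the probe set with the highest mean over all arrays stood for each gene. This gave 48 genes of 19752 with a symbol of their own on the array, measured in 65 sample groups of mouse cells. The question was which cell type holds which serpin. Values are intensities, the brightness of a probe set on a linear scale, and a group mean is the geometric mean of its arrays. A group mean of 120 was taken as expressed. A group was said to hold a serpin when its mean reached 120 and lay at least 4-fold above that gene's own median of the 65 group means.

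An inhibitory serpin offers the protease a reactive loop as bait, and once the loop is cut the protease is dragged across the molecule, distorted and trapped in a covalent complex. Clade A, C, D, F and G members are mostly secreted and act in plasma or tissue fluid on coagulation, complement and inflammatory proteases, and some of them carry hormones instead. Clade B members lack a classical secretion signal and act mainly inside cells, where they can protect a cell from the granule proteases that it or its neighbour makes. Serpinh1 of clade H is no inhibitor but the collagen chaperone of the endoplasmic reticulum.

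The study is a gene expression compendium of sorted mouse immune and stromal cells on Affymetrix arrays. Of the 65 groups, 12 had 1 array, 28 had 2, 23 had 3 and 2 had 4. The labels do not say which arrays came from separate animals, so p-values measure the spread between these arrays, which may be technical. Thymic epithelium from male C57BL/6 mice of 5 or 8 weeks was titled cortical (CEC) or medullary (MEC), with hi, lo or Sca1+ added, yet all 7 of these groups carry identical sort markers in the labels, Ly51+ and Sca1+ included. High-MHCII medullary cells (MEChi) from C57BL/6 mice of 5 weeks, mixed sex and CD45- Ly51-, were titled GFP+ KO, GFP+ and GFP-, without naming the reporter or the gene knocked out. Subcutaneous lymph node stroma came from male C57BL/6J mice of 6 weeks, either 6 days after complete Freund's adjuvant (CFA) or untreated. It was sorted as lymphatic endothelium (LEC, gp38+ CD31+), fibroblastic reticular cells (FRC, gp38+ CD140a+) and double negative cells, and a further FRC array, titled Cad11.WT, came from a mixed C57BL/6J and 129SJL background. Lung alveolar macrophages, lung CD11b+ macrophages, lung monocytes and blood and lymph node monocytes came from male C57BL/6 mice of 6 weeks, as did liver macrophages (CD64+ Mertk+). F4/80hi peritoneal macrophages titled Gata6ko or ctrl came from males of 9 weeks on a mixed background. Visceral fat macrophages, CD11b+ dendritic cells (strain not given), CD11b- dendritic cells and eosinophils came from males of 45 to 52 days, all but the CD11b+ dendritic cells C57BL/6J. Blood eosinophils and neutrophils came from male C57BL/6 or C57BL/6J mice of about 6 to 7 weeks. Mast cells (CD117+ FcER1a+) of skin, peritoneum, digested peritoneum and an array titled MC.To with muscle as its source came from male C57/Bl6 or B6 mice of 6 weeks, and blood basophils (CD49b+ FcER1a+) from male C57/Bl6 mice of 6 weeks. Naive CD4 and CD8 cells (CD62Lhi CD44lo) from nodes of male C57BL/6 mice of 6 weeks were kept with CD3 and CD28 beads for 1, 5, 24, 48 or 96 h, or were controls that carry no culture time. Spleen CD4 cells came from male C57BL/6 or C57BL/6J mice of 6 weeks, 8 or 30 days after LCMV, a virus, or as naive CD44- cells. Spleen CD8 cells from male B6 mice of 45 days were taken 6 or 8 days after Listeria with ovalbumin (LisOVA). The day 6 cells were OT1 cells titled Tbet- (CD45.1+) or Tbet+ (CD45.2+). Gamma delta and double positive CD69- thymocytes titled embryonic day 17 carry an age of 5 weeks in the labels, on C57BL/6J. Further double positive thymocytes, CD69+ or CD69-, came from males of 6 weeks with no strain given. A single array titled B1a cells of spleen carries an age of 9 weeks and, in its labels, T cell markers.

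Array medians of all probe sets lay between 111.7 and 146.7, and no array repeated another. Gata6 was not lower in the arrays labelled Gata6ko, at 3047, 2568 and 3120, against 2832, 3221 and 2553 in the ctrl arrays. Where its probes lie relative to a deleted part is not known here, so these values check nothing about the deletion, and directions below rest on the label alone. Tbx21, which encodes T-bet, was at 286, 283 and 308 in the Tbet- arrays and at 3313, 2889 and 3326 in the Tbet+ arrays. The liver macrophage arrays held 6 of 6 hepatocyte markers at 120 or more, and the CEChi arrays held 3 of 3 measured T cell markers, so both are given beside the serpins they touch. Of the 4 peritoneal mast cell arrays, 2 carry blood as their source in the labels.

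A run of 11 measured clade B genes lies in one neighbourhood of chromosome 1, and their promoters are shown because these neighbours differ in the kind of cell of their highest group. Sequences are from RefSeq (GRCm38.p6), 5′ to 3′ on the strand of the gene, 250 bases before to 50 after a listed start. Of the 48 genes 41 had a listed promoter. The capitals mark matches to TGANTCA, with any base in the middle, searched on both strands. This is a wide form of the usual AP-1 site, TGAGTCA or TGACTCA. AP-1 is the dimer of Fos and Jun type factors. Serpinb12 and Serpinb11 stand for the genes that were highest in thymic epithelium, and Serpinb2, Serpinb10 and Serpinb8 for the genes that were highest in macrophages or monocytes.
Serpinb12, chr1:106934199-106934498, plus strand: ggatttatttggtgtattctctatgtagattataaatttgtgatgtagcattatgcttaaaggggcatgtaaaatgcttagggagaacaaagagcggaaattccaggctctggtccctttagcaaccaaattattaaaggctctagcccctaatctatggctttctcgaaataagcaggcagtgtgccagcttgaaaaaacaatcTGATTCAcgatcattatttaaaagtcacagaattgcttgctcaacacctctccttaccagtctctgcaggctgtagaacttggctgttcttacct
Serpinb11, chr1:107362064-107362363, plus strand: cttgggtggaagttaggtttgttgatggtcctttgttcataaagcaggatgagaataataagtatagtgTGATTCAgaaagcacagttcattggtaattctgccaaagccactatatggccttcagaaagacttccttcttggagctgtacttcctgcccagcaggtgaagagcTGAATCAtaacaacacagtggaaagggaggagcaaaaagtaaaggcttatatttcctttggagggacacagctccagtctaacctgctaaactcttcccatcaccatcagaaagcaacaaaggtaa
Serpinb2, chr1:107511173-107511472, plus strand: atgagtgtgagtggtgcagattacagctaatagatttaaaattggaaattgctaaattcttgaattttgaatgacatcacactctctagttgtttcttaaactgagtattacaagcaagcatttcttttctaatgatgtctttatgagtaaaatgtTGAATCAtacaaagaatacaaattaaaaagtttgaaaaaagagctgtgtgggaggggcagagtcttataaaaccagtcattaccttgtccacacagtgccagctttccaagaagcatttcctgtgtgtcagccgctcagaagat
Serpinb10, chr1:107528753-107529052, plus strand: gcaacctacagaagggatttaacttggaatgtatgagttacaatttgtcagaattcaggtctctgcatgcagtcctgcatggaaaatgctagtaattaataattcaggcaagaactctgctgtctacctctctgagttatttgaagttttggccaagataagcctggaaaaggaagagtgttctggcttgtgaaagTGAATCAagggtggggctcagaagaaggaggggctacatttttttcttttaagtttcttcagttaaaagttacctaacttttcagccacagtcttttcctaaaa
Serpinb8, chr1:107589756-107590055, plus strand: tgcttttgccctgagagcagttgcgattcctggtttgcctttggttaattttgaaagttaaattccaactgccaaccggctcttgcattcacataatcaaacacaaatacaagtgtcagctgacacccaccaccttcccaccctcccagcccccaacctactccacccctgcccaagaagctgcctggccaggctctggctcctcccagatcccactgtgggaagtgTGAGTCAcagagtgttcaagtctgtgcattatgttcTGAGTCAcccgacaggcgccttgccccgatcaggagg
At least 1 match stood in a listed promoter of 7 of the 10 neighbours that had one (Serpinb5, Serpinb12, Serpinb11, Serpinb7, Serpinb2, Serpinb10 and Serpinb8), epithelial and myeloid by highest group alike. It stood in 2 of the other 31 serpins with a promoter and in 7.81% of all 32851 listed promoters of this length. The middle base was G in Serpinb7 and Serpinb8, and A or T in the other neighbours with a match. In Serpina1c and Serpina1d, the 2 other serpins, it was C. The share of all promoters with G or C there was not counted, so these figures do not count usual AP-1 sites. Another listed start of Serpinb12 had no match. Motifs of other factors were searched in the same way, and no TGANTCA match of the neighbours overlapped one of them. The motif of the GATA factors, taken as either AGATAA or its other common form TGATAA, stood in 4 of the 10 neighbours and in 18.6% of all promoters. The T-box motif GGTGTGA stood in 1 of the 10 and in 3.98% of all promoters, and the PU.1 motif GAGGAAGT in 1 of the 10 and in 3.20% of all. The counts of serpins are of genes with a match at any listed start, while the shares of all are of single promoters. A match says that these letters are there, not that a factor binds.

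In gene order these 11 neighbours are Serpinb5, Serpinb12, Serpinb13, Serpinb3a, Serpinb3d, Serpinb3c, Serpinb11, Serpinb7, Serpinb2, Serpinb10 and Serpinb8. The first 8 each had their highest group in thymic epithelium. The last 3 had theirs in macrophages or monocytes, although all 3 were also held by thymic epithelium, and Serpinb8 by lymph node stroma too. For Serpinb2 this order is not resolved. It averaged 4970 in ctrl peritoneal macrophages and 4440 in GFP- MEChi cells, and these arrays overlapped. Serpinb13 (highest mean 49.6) and Serpinb3d (88.3) did not reach 120 in any group, so their place in this order rests on dim signals.

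**Figure D1:**
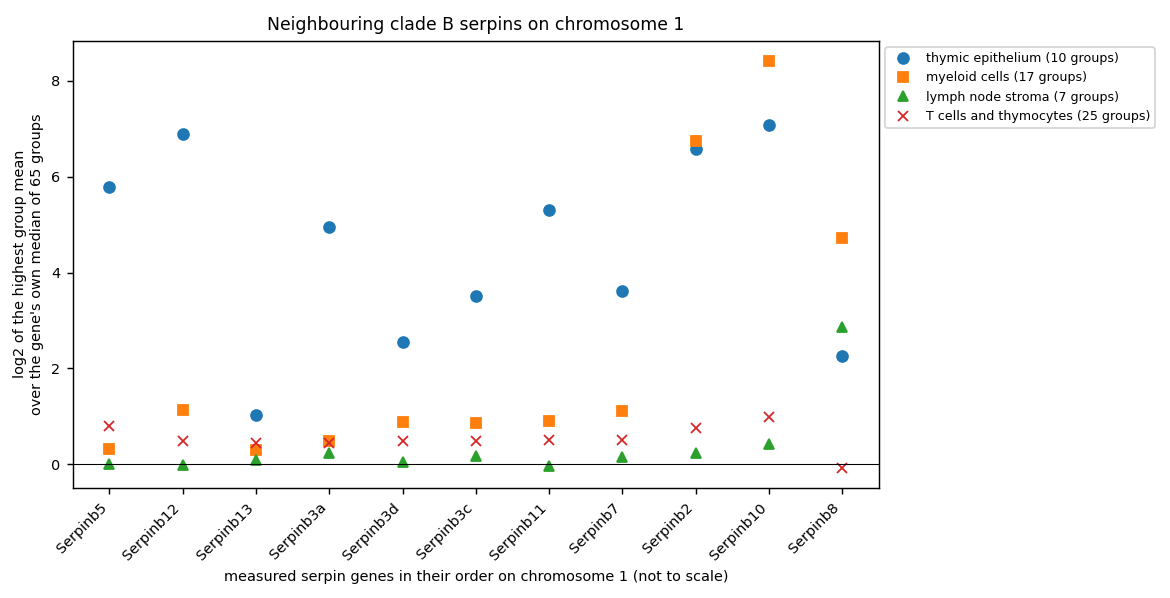
Highest group mean of each of 11 neighbouring clade B serpins in 4 kinds of cells, as log2 over the gene's own median of 65 group means (y axis), in gene order (x axis). Circles for thymic epithelium lead from Serpinb5 to Serpinb7, and squares for myeloid cells lead from Serpinb2 to Serpinb8, at Serpinb2 by a narrow margin with overlapping arrays.

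Across the compendium, 29 of the 48 serpins (60.4%) reached 120 in at least 1 group, against 79.8% of all 19752 genes. Restricted genes, at 120 in fewer than 25% of the groups, made up 19 of the 48 serpins (39.6%), against 21.0% of all genes. Another 10 serpins (20.8%) were intermediate, against 15.03% of all genes. None was broad, at 120 in 75% of the groups or more, while 43.7% of all genes were. Thymic epithelium held 21 serpins and lymph node stroma 11. Macrophages held 8, dendritic cells 3, and monocytes, mast cells, eosinophils and spleen T cells 2 each. Neutrophils held Serpinb10 and basophils Serpinb1a, and by this rule the lymph node T cells, thymocytes and B1a cells held none. The highest group mean of 11 serpins was in thymic epithelium, of 7 in stroma, of 7 in macrophages and of 2 in eosinophils, while Serpinb1a peaked in mast cells and Serpinb10 in monocytes. Among the macrophage peaks, Serpina1c, Serpina1d, Serpind1 and Serpinf2 were in liver arrays, which also held hepatocyte markers. Both eosinophil peaks, of Serpina11 and Serpine3, were in the single fat array. Serpine3 was there at 156, against its median of 101. The number of groups per kind of cell, from 1 to 12, and the 12 groups of 1 array bear on these counts. The share of all genes that each kind of cell holds or tops is not given here. These counts therefore cannot be read as a trait of serpins.

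**Figure D2:**
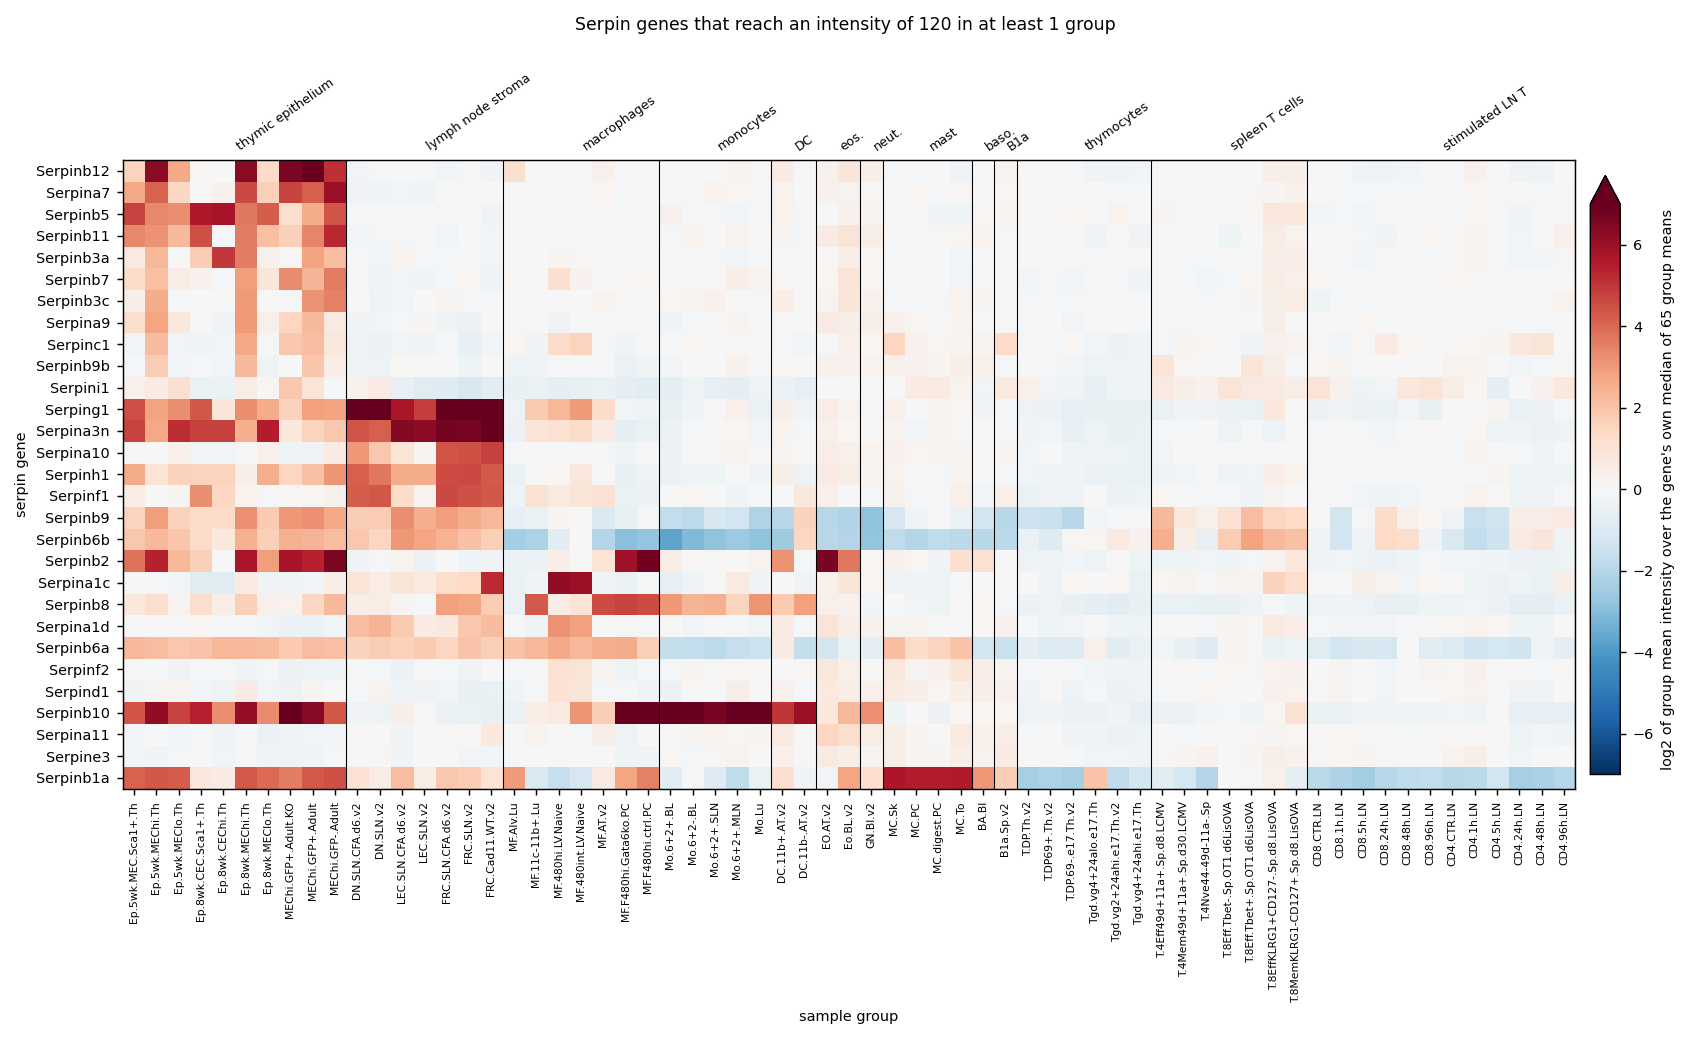
Group means of the 29 serpins that reached 120, as log2 over each gene's own median of 65 group means (colour, with larger values drawn in the end colour). Columns are the 65 groups by kind of cell, and rows are ordered by the kind of cell with the highest mean; the upper rows are filled in thymic epithelium and the middle rows in stroma.

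Thymic epithelium lines the organ in which T cells mature, and its medullary cells are known for expressing genes of many other tissues, which they present to the T cells. Serpins of other organs were among those it held. Serpina7, thyroxine-binding globulin, is a hormone carrier of plasma made in liver. It peaked at 1824, 2012 and 1641 in GFP- MEChi cells, and all 6 groups at 120 were thymic epithelial. Serpinc1, antithrombin, the main plasma inhibitor of thrombin, stood at 478 and 474 in MEChi cells of 8 weeks, its highest group. Serpinb5 is maspin, an epithelial serpin that does not inhibit proteases. It was highest in CEChi cells, at 1115 and 1522, which overlapped the second group, Sca1+ CEC cells at 834 and 1607. Serpinb3a, a mouse counterpart of the human squamous cell carcinoma antigens, reached 120 in CEChi cells alone among the 65 groups, at 235 and 278. Serpinb7 reached it only in GFP- MEChi cells, at 131, 125 and 121, close to the line. The 4 epithelial markers measured were at 120 or more in all 10 of these groups.

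In MEChi against MEClo cells of 8 weeks, 19 serpins were bright enough to test and 15 were called, 13 higher and 2 lower, where 38.2% of all probe sets were called (18.8% higher and 19.4% lower). Throughout, a call is an adjusted p under 0.05 in limma, and a gene was tested if some group of the fit averaged at least the median of all its values, so counts and shares cover only the genes and probe sets tested. Where a group lies under 120, the size of its log2 difference rests on a dim signal and is no exact fold. The serpins tested had a median log2 difference of 1.38, against -0.06 over all probe sets. A serpin dim in MEClo cells could enter the test only through a brighter group. The median and the split by direction, here and below, are therefore no trait of serpins as a set. Serpinb12, an epithelial clade B serpin, stood at 1386 and 1492 in MEChi cells and at 38.3 and 56.1 in MEClo cells, a log2 difference of 4.956 ± 0.40 (SE), adjusted p = 2.5e-06. The 2 MEClo arrays lay below 120 and both MEChi arrays far above it. In bulk samples such as these, fewer cells of a type and less RNA per cell cannot be told apart. Serpinb3a stood at 95.9 and 105 in MEChi and at 9.01 and 11.4 in MEClo cells (3.30 ± 0.21 (SE), adjusted p = 5.0e-07), with neither group at 120. Serpina7 stood at 670.1 and 762 in MEChi and at 91.3 and 88.4 in MEClo cells (2.99 ± 0.34 (SE), adjusted p = 2.9e-05). Serpinb10 is bomapin, best known from bone marrow cells. It stood at 1406 and 1864 in MEChi and at 197 and 242 in MEClo cells (2.89 ± 0.29 (SE), adjusted p = 1.2e-05). Serpinc1 stood at 478 and 474 in MEChi and at 67.1 and 67.2 in MEClo cells (2.83 ± 0.16 (SE), adjusted p = 2.3e-07). Serpina3n, a secreted inhibitor of chymotrypsin-like proteases, ran the other way, at 485 and 423 in MEChi and 3599.5 and 3533 in MEClo cells (-2.98 ± 0.21 (SE), adjusted p = 9.0e-07). In all 6 the arrays of the groups did not overlap. These 6 had the largest called differences, which favours a lack of overlap. The share of all probe sets without overlap is not given, so here and below a lack of overlap is no trait of serpins. Serpinh1, the collagen chaperone, was the other serpin lower in MEChi cells (log2 -2.15). Serpinb2, Serpina9, Serpinb9b, Serpinb11, Serpinb9, Serpinb8, Serpinb6b and Serping1 were higher, by log2 differences between 0.64 and 2.77. Markers of other cells moved too. Fibroblast markers summed to 1705 to 1829 (3 of 5 at 120) in MEChi and 3121 to 3398 (3 of 5 at 120) in MEClo arrays. Hepatocyte markers summed to 2512 to 2596 (5 of 6 at 120) in MEChi and 398 to 402 (1 of 6 at 120) in MEClo arrays. Neutrophil markers summed to 947 to 1143 (4 of 4 at 120) in MEChi and 206 (0 of 4 at 120) in MEClo arrays. T cell markers summed to 509.6 to 554 (2 of 3 at 120) in MEChi and 232 to 236 (0 of 3 at 120) in MEClo arrays. Macrophage markers summed to 359 to 362 (1 of 4 at 120) in MEChi and 176 to 201 (0 of 4 at 120) in MEClo arrays. Platelet markers summed to 844 to 857 (2 of 4 at 120) in MEChi and 271 (0 of 4 at 120) in MEClo arrays. Fibroblast markers were lower in MEChi cells, as were Serpina3n and Serpinh1, and the other lists were higher. What part these markers had was not tested. Of 36 target proteases of serpins in a fixed list, 18 were tested, with 10 higher, Mcpt2, Mcpt1 and Gzmb among them, and 4 lower, Ctsl among them. Gzmb, the granule protease that Serpinb9 inhibits, averaged 144.9 in MEChi and 35.1 in MEClo cells.

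Cortical CEChi cells, set against MEChi cells of the same age, had called differences in 18 of 19 serpins tested, 5 higher and 13 lower, beside 47.9% of all probe sets (25% higher and 23% lower). These results share the MEChi arrays with the comparison before. Serpinb12 stood at 18.0 and 19.3 in CEChi and at 1386 and 1492 in MEChi cells (log2 -6.27 ± 0.40 (SE), adjusted p = 2.3e-07). Serpinb2, plasminogen activator inhibitor type 2, stood at 37.0 and 61.0 in CEChi and at 2609 and 2291 in MEChi cells (-5.69 ± 0.41 (SE), adjusted p = 5.0e-07). Both were under 120 in every CEChi array. Serpina7 was at 27.4 and 44.0 in CEChi and 670.1 and 762 in MEChi cells (-4.36 ± 0.34 (SE), adjusted p = 8.7e-07). Serpinb1a, an intracellular inhibitor of neutrophil elastase, cathepsin G and proteinase 3, was at 176 and 347 in CEChi and 3526 and 3011 in MEChi cells (-3.72 ± 0.29 (SE), adjusted p = 9.0e-07). Serpinb11, another epithelial clade B serpin, was at 15.5 and 14.6 in CEChi and 221 and 175 in MEChi cells (-3.71 ± 0.29 (SE), adjusted p = 9.5e-07). Serpina9, called centerin and known from germinal centre B cells in humans, was at 37.6 and 34.3 in CEChi and 334 and 344 in MEChi cells (-3.24 ± 0.19 (SE), adjusted p = 1.2e-07). No array of one group reached into the range of the other for these 6. Higher in CEChi cells were Serpina3n, Serpinb5, Serpinb3a, Serpinf1 and Serpinh1, by log2 differences of 2.23, 2.12, 1.35, 1.21 and 1.14. Serpinb6a, an inhibitor of cathepsin G, was not called, at 763 and 1026 in CEChi and 941 and 764 in MEChi cells. The summed fibroblast markers lay at 4148 to 4348 (3 of 5 at 120) in CEChi and 1705 to 1829 (3 of 5 at 120) in MEChi arrays. T cell markers summed to 2232 to 2820.4 (3 of 3 at 120) in CEChi and 509.6 to 554 (2 of 3 at 120) in MEChi arrays. Neutrophil markers summed to 199.5 to 244 (0 of 4 at 120) in CEChi and 947 to 1143 (4 of 4 at 120) in MEChi arrays. Hepatocyte markers summed to 306 to 334 (0 of 6 at 120) in CEChi and 2512 to 2596 (5 of 6 at 120) in MEChi arrays. Mast cell markers summed to 235 to 242 (0 of 5 at 120) in CEChi and 1183 to 1188 (3 of 5 at 120) in MEChi arrays. Fibroblast and T cell markers were higher in CEChi cells and the other 3 lists lower. Their part in the serpin values was not tested. Of 18 target proteases tested, 4 were higher (Prss16, Ctsl, Plau and C1ra) and 11 lower.

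Within 5-week MEChi cells, GFP+ against GFP- cells differed in 12 of 20 serpins tested, 7 higher and 5 lower, where 49.4% of all probe sets were called (28.9% higher and 20.5% lower). Serpinb10 was at 1922, 1729.6 and 1963 in GFP+ and 521, 404 and 429 in GFP- cells (log2 2.06 ± 0.11 (SE), adjusted p = 9.6e-07), with no overlap. Serpinb12 was at 2221, 2109.9 and 2214 in GFP+ and 771, 673 and 487 in GFP- cells (1.79 ± 0.19 (SE), adjusted p = 3.7e-05). Serpina9 was at 247, 218 and 177 in GFP+ and 63.6, 59.6 and 80.1 in GFP- cells (1.66 ± 0.16 (SE), adjusted p = 2.2e-05), where none of the GFP- arrays reached 120. On chromosome 1, Serpinb5 and Serpinb11 ran against their neighbours Serpinb10 and Serpinb12. Serpinb11 was at 150.1, 184 and 199 in GFP+ and 695, 655 and 607 in GFP- cells (-1.88 ± 0.22 (SE), adjusted p = 6.6e-05). Serpinb5 was at 159, 127 and 144 in GFP+ and 766, 331 and 491 in GFP- cells (-1.81 ± 0.25 (SE), adjusted p = 1.9e-04). Serpina7 also was lower in GFP+ cells, at 453, 459 and 682, against 1824, 2012 and 1641 in GFP- cells (-1.80 ± 0.25 (SE), adjusted p = 1.9e-04). Serpinb9b, a mouse paralogue of Serpinb9, Serpinc1, Serpini1 (neuroserpin) and Serpinb9 were higher too, by 1.49, 1.39, 0.98 and 0.50. Serpinb2 and Serpinb8 were lower, by log2 differences of -1.17 and -0.81. Serpinb2 nevertheless stayed far above 120 in both groups, at 2311, 1675 and 2001 in GFP+ and 5486, 4095 and 3896 in GFP- cells. Neutrophil markers summed to 783 to 1076 (4 of 4 at 120) in GFP+ and 345 to 490.0 (1 of 4 at 120) in GFP- arrays. Macrophage markers summed to 432 to 499 (2 of 4 at 120) in GFP+ and 218 to 288 (0 of 4 at 120) in GFP- arrays. Hepatocyte markers summed to 1795 to 2380.4 (5 of 6 at 120) in GFP+ and 1414 to 1647 (2 of 6 at 120) in GFP- arrays. Eosinophil markers summed to 779 to 853 (2 of 4 at 120) in GFP+ and 339 to 394 (0 of 4 at 120) in GFP- arrays. All 4 lists were higher in GFP+ cells. The part of these markers in the result was not tested. Of 14 target proteases tested, 6 were higher, Gzmb, Mcpt1 and Mcpt2 among them, and 2 lower.

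In the GFP+ cells titled KO, against GFP+ cells, 11 of 20 serpins tested were called, 2 higher and 9 lower, beside 19.1% of all probe sets (9.4% higher and 9.66% lower). Serpinb3c, another squamous cell carcinoma antigen relative, was at 11.6, 11.8 and 11.6 in KO and 111, 103 and 134 in GFP+ cells (log2 -3.30 ± 0.22 (SE), adjusted p = 1.2e-06). Its KO mean lay near its median over all groups, 12.9, while the GFP+ arrays lay close to 120. Serpinb9b was at 61.3, 66.4 and 69.6 in KO and 203, 278 and 266 in GFP+ cells (-1.91 ± 0.20 (SE), adjusted p = 4.7e-05), and its KO arrays all lay under 120. Serpinb11 was at 69.0, 62.6 and 34.8 in KO and 150.1, 184 and 199 in GFP+ cells (-1.73 ± 0.22 (SE), adjusted p = 2.4e-04). Serpinb5 was at 61.7, 61.0 and 47.4 in KO and 159, 127 and 144 in GFP+ cells (-1.34 ± 0.25 (SE), adjusted p = 0.0032), so the groups stood on either side of 120. Serping1, the C1 inhibitor of complement and contact proteases, was at 208, 150.3 and 192 in KO and 487, 388 and 456 in GFP+ cells (-1.28 ± 0.14 (SE), adjusted p = 6.7e-05). Serpinb8, which inhibits furin in humans, was at 71.4, 73.2 and 85.9 in KO and 181, 164 and 195 in GFP+ cells (-1.23 ± 0.24 (SE), adjusted p = 0.0050). Each of these 6 had arrays that did not overlap. Serpini1 and Serpinb10 were the 2 higher in KO cells, by log2 0.97 and 0.70. Serpina3n, Serpina9 and Serpinb1a were lower by smaller amounts, with log2 differences of -0.79, -0.76 and -0.69. Serpinb12 and Serpinb2 were not called, Serpinb12 at 1421, 1641 and 2297 in KO and 2221, 2109.9 and 2214 in GFP+ cells. Serpinb2 was at 2472, 2501 and 2599 in KO and 2311, 1675 and 2001 in GFP+ cells (adjusted p = 0.1304). Fibroblast markers summed to 3999 to 4319 (3 of 5 at 120) in KO and 2142 to 2313 (3 of 5 at 120) in GFP+ arrays. Neutrophil markers summed to 212 to 237 (0 of 4 at 120) in KO and 783 to 1076 (4 of 4 at 120) in GFP+ arrays. Macrophage markers summed to 229.5 to 309 (0 of 4 at 120) in KO and 432 to 499 (2 of 4 at 120) in GFP+ arrays. Hepatocyte markers summed to 409 to 534 (1 of 6 at 120) in KO and 1795 to 2380.4 (5 of 6 at 120) in GFP+ arrays. Platelet markers summed to 266 to 269.7 (0 of 4 at 120) in KO and 793 to 1026 (3 of 4 at 120) in GFP+ arrays. Fibroblast markers were higher in KO cells and the other 4 lists lower. What part these markers had was not tested. Among 14 target proteases tested, 2 were higher and 5 lower, and Gzmb averaged 32.9 in KO and 254 in GFP+ cells.

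**Figure D3:**
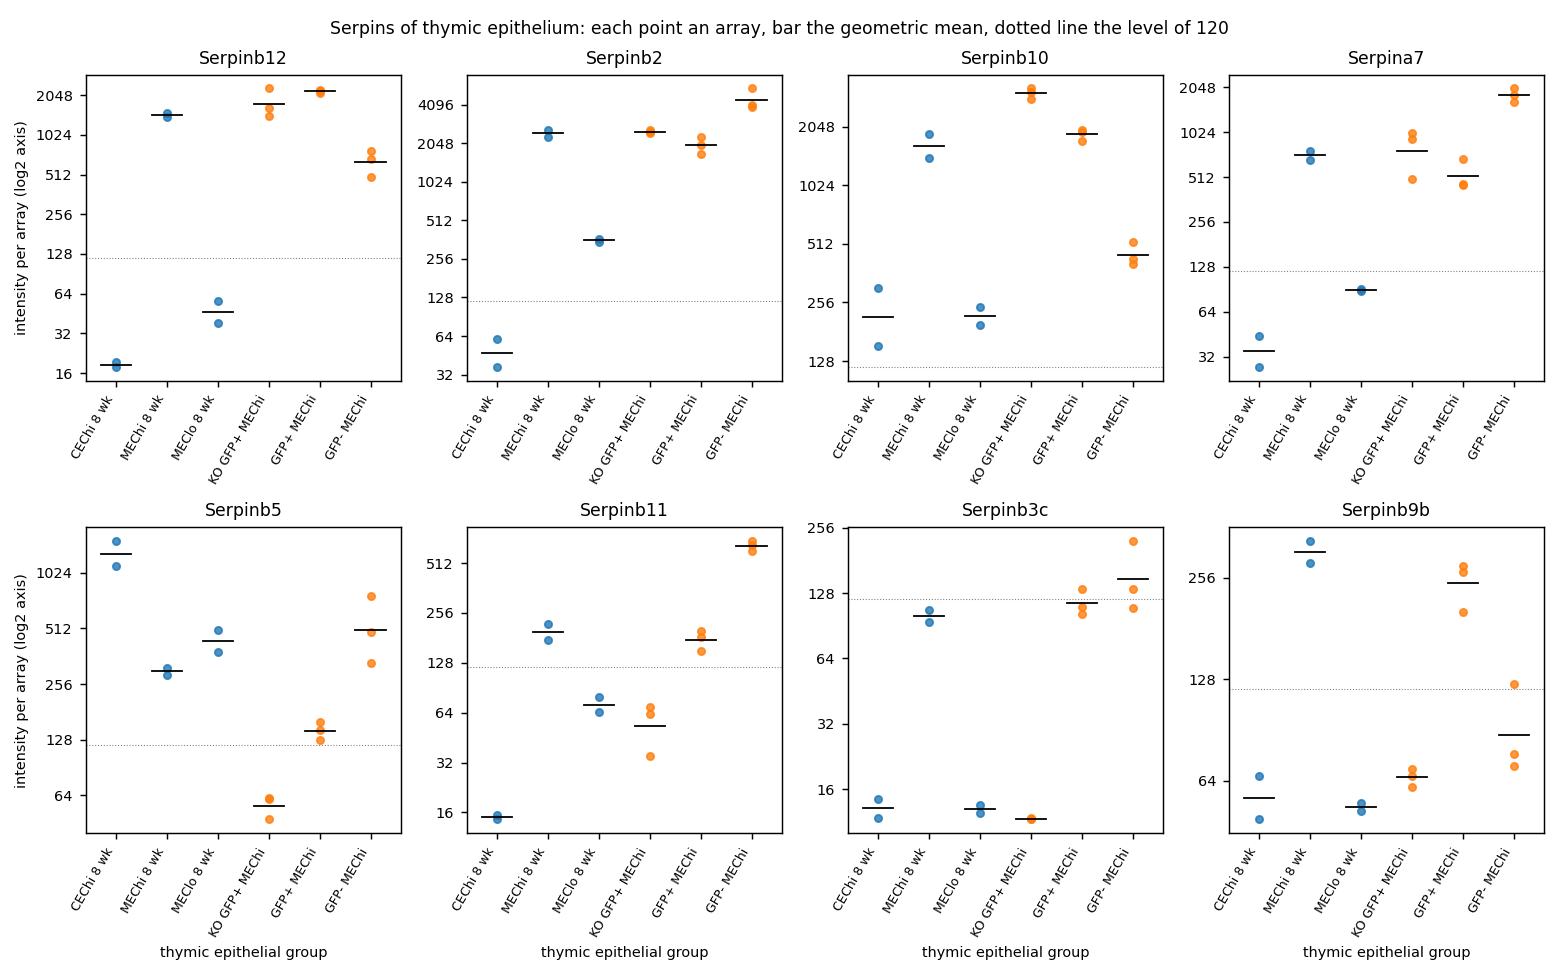
Intensity per array on a log2 axis for 8 serpins in 6 thymic epithelial groups; points are arrays, bars geometric means, and the dotted line is 120. Serpinb12 is high in MEChi cells of 8 weeks and lies below the line in CEChi cells, and Serpinb3c is lower in all KO arrays than in all GFP+ arrays.

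Lymph node stroma held 11 serpins, among them the secreted Serpina10, Serpina3n, Serpinf1 and Serping1. Fibroblastic reticular cells build the collagen network of the node, and lymphatic endothelium lines its sinuses. Serping1 reached 11356 and 11183 in FRC arrays, the highest group of that gene, and 10169.7 and 9271 in double negative cells. Serpina3n peaked at 10373 in the single Cad11.WT FRC array and stood at 8069 and 8320.5 in FRC after CFA. Serpinf1, pigment epithelium-derived factor, a secreted serpin that blocks vessel growth and is no protease inhibitor, was at 2873 and 3151 in FRC after CFA. Serpinh1 was at 1987 and 2135 in FRC, and Serpina10, the protein Z-dependent inhibitor of coagulation factor Xa, peaked at 2247 in the Cad11.WT array. The summed fibroblast markers lay at 26776 to 27267 in FRC arrays, with 5 of 5 at 120, and at 4876 to 5670 in LEC arrays, with 3 of 5.

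In LEC against FRC, 9 of 12 serpins tested were called, 1 higher and 8 lower, where 36.3% of all probe sets were called (16.3% higher and 20% lower). Serpina10 was at 88.1 and 102 in LEC and 1852 and 1758 in FRC (log2 -4.25 ± 0.19 (SE), adjusted p = 3.8e-08), and no LEC array reached 120. Serpinf1 was at 129 and 159.8 in LEC and 2410.5 and 2922 in FRC (-4.21 ± 0.17 (SE), adjusted p = 1.8e-08). Serpinb8 was at 57.6 and 62.0 in LEC and 457 and 432 in FRC (-2.90 ± 0.14 (SE), adjusted p = 6.2e-08). All 3 were near their compendium medians in LEC. Serping1 was at 1464 and 1929.6 in LEC and 11356 and 11183 in FRC (-2.75 ± 0.15 (SE), adjusted p = 1.2e-07), so LEC still lay far above 120. Serpinh1 was at 373 and 676 in LEC and 1987 and 2135 in FRC (-2.04 ± 0.28 (SE), adjusted p = 1.7e-04). Serpina1d, one of the mouse copies of alpha-1-antitrypsin, was at 44.4 and 44.6 in LEC and 124 and 98.7 in FRC (-1.31 ± 0.29 (SE), adjusted p = 0.0045). Serpinb1a and Serpina1c were lower by log2 -1.24 and -0.76. Serpinb6b, a mouse paralogue of Serpinb6a, alone among those tested was higher, at 2797 and 3038 in LEC and 1666 and 1935 in FRC (0.70 ± 0.13 (SE), adjusted p = 0.0017). Serpina3n was not called, at 5669 and 6383 in LEC and 7365 and 8533 in FRC (adjusted p = 0.2265). Of the 9 collagens in the fixed list all 9 were lower in LEC, and Col1a1 averaged 237 in LEC and 6104 in FRC. Of 11 target proteases tested, 3 were higher and 6 lower, and Lrp1, the receptor that clears serpin-protease complexes, averaged 152 in LEC and 4366 in FRC.

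FRC 6 days after CFA, against untreated FRC, had 0 of 12 tested serpins called by limma and 3 at an unadjusted p under 0.05, beside 0.0139% of all probe sets (0.0139% higher and 0% lower). The largest difference was in Serpina1d, at 35.03 and 71.1 after CFA and 124 and 98.7 without (log2 -1.15 ± 0.29 (SE), adjusted p = 0.2526). In LEC after CFA there was 1 array, which gives no test. It was the highest group of Serpinb6b, at 3548 after CFA and 2797 and 3038 without, and of Serpinb9, at 1896 after CFA and 969 and 1368 without.

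Serpina1c and Serpina1d, copies of alpha-1-antitrypsin, the plasma inhibitor of neutrophil elastase made by hepatocytes, were highest in liver macrophages. Serpina1c was at 1203, 2008 and 2039 in F4/80hi and 1618, 1533 and 1271 in F4/80int liver macrophages, and at 861 in the Cad11.WT FRC array. The 3 highest groups were these, and no other group reached 120. Serpinf2, the inhibitor of plasmin, averaged 215 and Serpind1, heparin cofactor II, 144 in the F4/80hi cells, their highest groups. Beside them 6 of 6 hepatocyte markers were at 120 in both liver groups, summing to 7276 to 8959 in F4/80hi and 6808 to 8830 in F4/80int arrays, and Alb averaged 4830 in F4/80hi and 4235 in F4/80int cells; their part in the result was not tested. In the Cad11.WT FRC array 1 of 6 hepatocyte markers was at 120 and Alb was at 32.7. Copies of this gene are near identical, so probes of one can pick up another. A pair of probe sets annotated to Serpina1a to Serpina1e together, which are no members, peaked at 1778 in F4/80int liver macrophages and at 5241 in the Cad11.WT array.

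F4/80hi against F4/80int liver macrophages differed in 3 of 13 serpins tested, all lower, where 20.2% of all probe sets were called (10.7% higher and 9.52% lower). Serpinb10 was at 43.9, 34.2 and 26.3 in F4/80hi and 319, 186 and 117 in F4/80int cells (log2 -2.49 ± 0.34 (SE), adjusted p = 0.0017), without overlap. Serpinb6b and Serpinh1 were lower by log2 -0.81 and -0.65. Serpinb6a, at 1097, 1169.9 and 1051 in F4/80hi and 941, 896 and 808 in F4/80int cells, missed the call (adjusted p = 0.0612), and its F4/80hi mean was its highest of all groups. Ccr2, a chemokine receptor and the single monocyte marker measured, lay at 78.1 to 103 in F4/80hi and 340 to 752 in F4/80int arrays. Neutrophil markers summed to 209 to 263 (0 of 4 at 120) in F4/80hi and 581 to 639.8 (2 of 4 at 120) in F4/80int arrays. Mast cell markers summed to 458 to 471 (1 of 5 at 120) in F4/80hi and 1119 to 1219 (1 of 5 at 120) in F4/80int arrays. T cell markers summed to 299 to 325 (1 of 3 at 120) in F4/80hi and 462 to 589.7 (3 of 3 at 120) in F4/80int arrays. All were lower in F4/80hi cells. Their part in the serpin values was not tested. Without F4/80int replicate 1 the count was 5.

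Among macrophages and monocytes, the clade B serpins Serpinb10, Serpinb8, Serpinb2 and Serpinb1a differed in which tissues held them. Serpinb10 was highest in blood Ly6C+ MHCII+ monocytes, at 7636 in a single array. It was at 6731 and 6212 in the blood group titled MHCII-, which the labels give as MHCII+, 6393, 5052 and 4308 in lung monocytes and 2387, 1657 and 2859.8 in monocytes of skin-draining nodes. The single blood array lay above every other monocyte array, and the node arrays below the lung arrays. Serpinb8 was at 1976, 1374 and 1875 in peritoneal macrophages labelled Gata6ko, 1879, 1513 and 1271 in ctrl ones and 1355, 1579 and 1769 in fat macrophages, which overlapped. Serpinb2 was held in this lineage by peritoneal macrophages, at 5824, 5413 and 3894 in ctrl cells, and by fat CD11b+ dendritic cells, and it was at 52.6, 60.1 and 55.0 in lung monocytes.

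In alveolar against CD11b+ lung macrophages, 6 of 8 serpins tested were called, 1 higher and 5 lower, beside 52.9% of all probe sets (32.5% higher and 20.4% lower). Serpinb8 was at 46.3, 46.9 and 49.8 in alveolar and 1294, 1312 and 1319 in CD11b+ lung macrophages (log2 -4.78 ± 0.14 (SE), adjusted p = 4.0e-14). Serpinb1a did the reverse, at 1231, 1380.2 and 1317 in alveolar and 51.5, 86.1 and 104 in CD11b+ lung macrophages (4.08 ± 0.20 (SE), adjusted p = 1.8e-11). In both genes one lung macrophage lay wholly above 120 and the other wholly below it. Serping1 was at 45.9, 46.9 and 48.6 in alveolar and 216, 209 and 212 in CD11b+ lung macrophages (-2.17 ± 0.13 (SE), adjusted p = 3.7e-10). Serpinf1 was at 87.1, 100.2 and 109 in alveolar and 242, 307 and 213 in CD11b+ lung macrophages (-1.35 ± 0.15 (SE), adjusted p = 6.3e-07). Serpina3n was at 67.1, 55.4 and 56.6 in alveolar and 145.3, 169 and 129.5 in CD11b+ lung macrophages (-1.31 ± 0.14 (SE), adjusted p = 7.3e-07). These 3 secreted serpins were near their medians in alveolar cells. Serpinb10 was lower too (log2 -0.98), at levels under 120 in both. Fibroblast markers summed to 556 to 610.5 (2 of 5 at 120) in alveolar and 918 to 927 (4 of 5 at 120) in CD11b+ arrays. Endothelium markers summed to 359 to 416 (0 of 5 at 120) in alveolar and 6895 to 8282 (2 of 5 at 120) in CD11b+ arrays. Platelet markers summed to 302 to 324 (0 of 4 at 120) in alveolar and 11056 to 12157 (3 of 4 at 120) in CD11b+ arrays. All 3 lists were lower in alveolar cells, and Ccr2, a monocyte chemokine receptor, lay at 68.1 to 80.0 in alveolar and 92.0 to 212 in CD11b+ arrays. The part of these markers in the result was not tested. Plaur, the receptor of the urokinase that Serpinb2 inhibits, averaged 3489 in alveolar and 222 in CD11b+ lung macrophages.

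CD11b+ lung macrophages, set against lung monocytes, had all 8 tested serpins called, 6 higher and 2 lower, beside 48.1% of all probe sets (20% higher and 28.1% lower); they share the CD11b+ arrays with the comparison before. Serpinb10 was at 19.2, 83.1 and 21.2 in CD11b+ macrophages and 6393, 5052 and 4308 in monocytes (log2 -7.33 ± 0.38 (SE), adjusted p = 8.3e-11). All 3 CD11b+ macrophage arrays lay under 120, so the size of this difference rests on a dim signal. Serpinb6a was at 779, 785 and 1144 in CD11b+ macrophages and 53.5, 62.9 and 69.1 in monocytes (3.85 ± 0.15 (SE), adjusted p = 3.1e-12). Serping1 was at 216, 209 and 212 in CD11b+ macrophages and 36.1, 48.4 and 45.8 in monocytes (2.30 ± 0.13 (SE), adjusted p = 2.8e-10). Neither Serpinb6a nor Serping1 reached 120 in any monocyte array. Serpinb9, the granzyme B inhibitor, was at 144, 169 and 127 in CD11b+ macrophages and 46.4, 40.3 and 51.0 in monocytes (1.67 ± 0.17 (SE), adjusted p = 4.2e-07). Serpinb8 was at 1294, 1312 and 1319 in CD11b+ macrophages and 521, 595 and 565 in monocytes (1.23 ± 0.14 (SE), adjusted p = 2.0e-06). Serpinf1 was at 242, 307 and 213 in CD11b+ macrophages and 96.1, 114 and 136 in monocytes (1.14 ± 0.15 (SE), adjusted p = 5.9e-06). In all of these the arrays stood apart. Serpina3n was higher as well (log2 1.12) and Serpinb1a lower (log2 -0.61). The summed fibroblast markers lay at 918 to 927 (4 of 5 at 120) in CD11b+ macrophage and 485 to 519 (2 of 5 at 120) in monocyte arrays. The summed endothelium markers lay at 6895 to 8282 (2 of 5 at 120) in CD11b+ macrophage and 433 to 458 (1 of 5 at 120) in monocyte arrays. Platelet markers summed to 11056 to 12157 (3 of 4 at 120) in CD11b+ macrophage and 303 to 313 (1 of 4 at 120) in monocyte arrays. Ccr2 lay at 92.0 to 212 in CD11b+ macrophage and 3349 to 4608 in monocyte arrays. What part these markers had was not tested. Of 11 target proteases tested, 6 were higher, Ctsl, Ctsb and Plau among them, and 3 lower.

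Peritoneal macrophages labelled Gata6ko differed from ctrl ones in 3 of 6 serpins tested, 1 higher and 2 lower, none of them 2-fold, where 6.69% of all probe sets were called (4.84% higher and 1.85% lower). Serpinb6a was at 1125, 990.4 and 1126 in arrays labelled Gata6ko and 742, 548 and 455 in ctrl arrays (log2 0.92 ± 0.17 (SE), adjusted p = 0.0171). Serpinb2 was at 3329, 2255 and 3094 in arrays labelled Gata6ko and 5824, 5413 and 3894 in ctrl arrays (-0.80 ± 0.19 (SE), adjusted p = 0.0405). Serpinb1a was at 1149, 948 and 1307 in arrays labelled Gata6ko and 1879, 1969 and 1850.5 in ctrl arrays (-0.76 ± 0.13 (SE), adjusted p = 0.0124). The groups did not overlap in these 3, yet the count fell to 1 without Gata6ko replicate 1, Gata6ko replicate 3 or ctrl replicate 2. Ccr2 lay at 451 to 993 in arrays labelled Gata6ko and at 54.0 to 62.0 in ctrl arrays. Endothelium markers summed to 2538 to 2822 (2 of 5 at 120) in Gata6ko-labelled and 479.5 to 652 (2 of 5 at 120) in ctrl arrays. Their part in the serpin values was not tested.

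In visceral fat, macrophages against CD11b+ dendritic cells differed in 7 of 10 serpins tested, 4 higher and 3 lower, beside 15.6% of all probe sets (9.03% higher and 6.55% lower). Serpinb10 was at 274, 33.5 and 45.9 in macrophages and 1138, 632 and 529 in CD11b+ dendritic cells (log2 -3.27 ± 0.69 (SE), adjusted p = 0.0136). Serpinb2 was at 257, 50.7 and 55.1 in macrophages and 416, 298 and 554 in CD11b+ dendritic cells (-2.19 ± 0.56 (SE), adjusted p = 0.0291). In both genes 1 macrophage array stood above the others, and Ccr2 ranged from 683 to 3512 over the macrophage arrays, against 3209 to 4274 in CD11b+ dendritic cells. Fibroblast markers summed to 1619.9 to 2024 (3 of 5 at 120) in macrophage and 607 to 911 (3 of 5 at 120) in CD11b+ dendritic cell arrays. The summed endothelium markers lay at 3964 to 7010.0 (2 of 5 at 120) in macrophage and 419.8 to 431 (0 of 5 at 120) in CD11b+ dendritic cell arrays. Platelet markers summed to 4979 to 5880.1 (2 of 4 at 120) in macrophage and 423 to 541 (1 of 4 at 120) in CD11b+ dendritic cell arrays. The part of these markers in the result was not tested. Serpinb10 lost its call without macrophage replicate 4 (adjusted p = 0.0560), and Serpinb2 lost it when macrophage replicate 3 or 4 or any dendritic cell array was left out (adjusted p 0.0509 to 0.1084). Serpinb8 was at 1355, 1579 and 1769 in macrophages and 261, 303 and 165 in CD11b+ dendritic cells (2.73 ± 0.23 (SE), adjusted p = 1.3e-04). Serpinb6a was at 662, 1283 and 1302 in macrophages and 270.4, 308 and 217 in CD11b+ dendritic cells (1.98 ± 0.29 (SE), adjusted p = 0.0024). Both stood clear of overlap. Serpinf1, Serpinb9 and Serpinb1a made up the rest, with log2 differences of 0.99, 0.92 and -0.58. With the replicate number as a block, 4 of the 7 calls were made, those of Serpinb10, Serpinb2, Serpinb8 and Serpinb6a. The count was 3 without macrophage replicate 4, and 4 without macrophage replicate 3 or dendritic cell replicate 2 or 3.

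CD11b+ against CD11b- dendritic cells of fat differed in 6 of 10 serpins tested, 3 higher and 3 lower, beside 15.7% of all probe sets (5.42% higher and 10.3% lower). Serpinb6b was at 71.6, 59.3 and 111 in CD11b+ and 1270.0 and 1096 in CD11b- cells (log2 -3.92 ± 0.27 (SE), adjusted p = 2.8e-05). Serpinb9 was at 47.0, 47.1 and 63.0 in CD11b+ and 758 and 469 in CD11b- cells (-3.52 ± 0.29 (SE), adjusted p = 7.2e-05). These 2 genes, both on chromosome 13, were under 120 in every CD11b+ array and above it in both CD11b- arrays. Serpinb2 was at 416, 298 and 554 in CD11b+ and 52.0 and 37.2 in CD11b- cells (3.22 ± 0.62 (SE), adjusted p = 0.0087). Serpinb6a was at 270.4, 308 and 217 in CD11b+ and 46.1 and 65.6 in CD11b- cells (2.26 ± 0.32 (SE), adjusted p = 0.0017). Those 2 ran opposite to Serpinb6b and Serpinb9. Serpinb1a was at 393, 386 and 360.0 in CD11b+ and 157 and 119 in CD11b- cells (1.47 ± 0.17 (SE), adjusted p = 6.3e-04). Serpinb8 was at 261, 303 and 165 in CD11b+ and 476 and 495 in CD11b- cells (-1.04 ± 0.26 (SE), adjusted p = 0.0254). Serpinb2 and Serpinb8 lost their calls without either of the 2 CD11b- arrays, with adjusted p up to 0.0879 and 0.1711. Macrophage markers summed to 3778 to 5929.6 (3 of 4 at 120) in CD11b+ and 293 to 335 (0 of 4 at 120) in CD11b- arrays. Mast cell markers summed to 264 to 310.1 (0 of 5 at 120) in CD11b+ and 2369.5 to 2596 (1 of 5 at 120) in CD11b- arrays. What part these markers had was not tested.

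**Figure D4:**
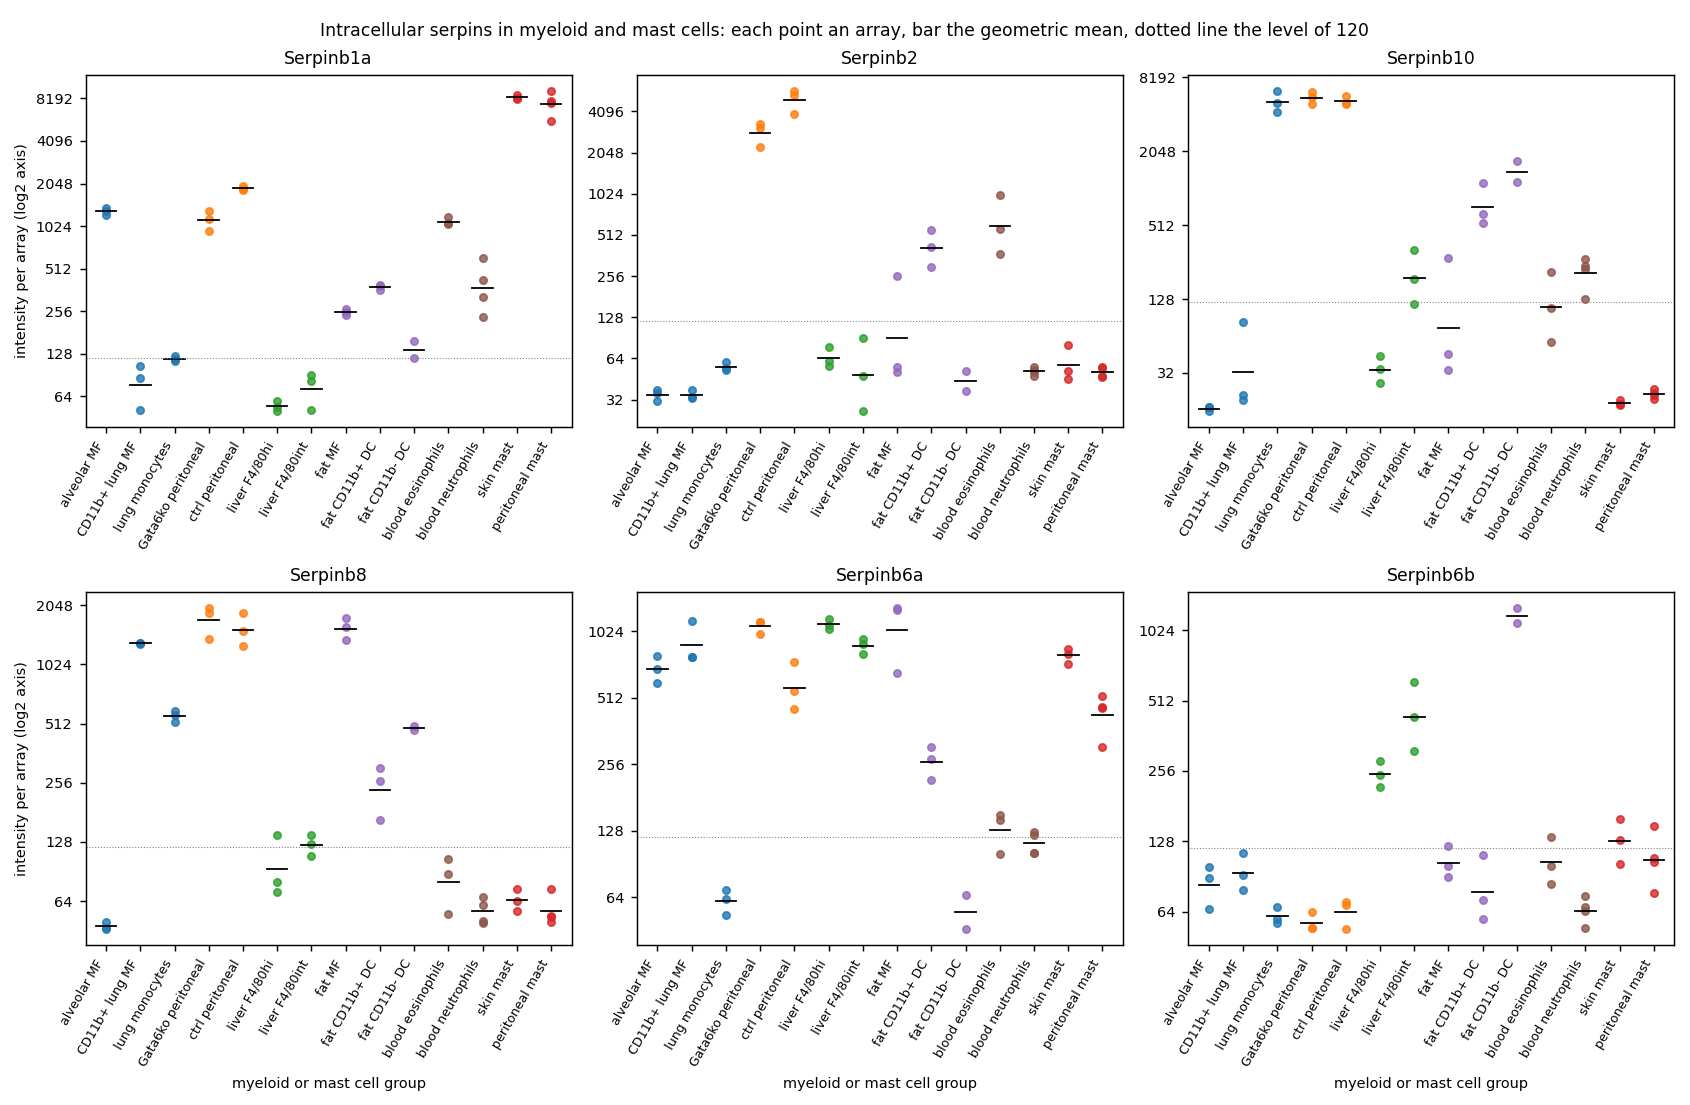
Intensity per array on a log2 axis for 6 clade B serpins in 14 myeloid and mast cell groups; points are arrays, bars geometric means, and the dotted line is 120. Serpinb10 stands far above the line in lung monocytes and peritoneal macrophages and below it in both lung macrophages, and Serpinb1a peaks in mast cells.

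Mast cells and basophils store proteases in granules, among them cathepsin G, chymases and tryptases. Serpinb1a reached its highest values of the compendium in mast cells, at 8099.5, 8249 and 8660.2 in skin, 7681 in the single array titled MC.To, 5664, 7834, 7623 and 9307 in peritoneal and 7328 in the digested peritoneal array. The peritoneal arrays spanned all the others, so peritoneal cells have no place in the order of these 4 groups. Basophils were at 1328 in 1 array. Ctsg, whose product Serpinb1a and Serpinb6a inhibit, averaged 5463 in skin and 4893 in peritoneal mast cells. Skin against peritoneal mast cells had 3 of 10 serpins tested called, all higher, beside 24.9% of all probe sets (10.2% higher and 14.7% lower). Serpinc1 was at 207, 219.6 and 205 in skin and 95.9, 83.2, 104 and 85.1 in peritoneal mast cells (log2 1.20 ± 0.14 (SE), adjusted p = 1.1e-05), so every skin array and no peritoneal array reached 120. Serpinb6a was at 853, 811 and 731 in skin and 521, 463, 307 and 459.8 in peritoneal mast cells (0.89 ± 0.19 (SE), adjusted p = 0.0024). Serpinf2 was higher by log2 0.61. The summed fibroblast markers lay at 1072 to 1236 (3 of 5 at 120) in skin and 515 to 696 (2 of 5 at 120) in peritoneal arrays. Endothelium markers summed to 406 to 444 (0 of 5 at 120) in skin and 1262 to 1757 (1 of 5 at 120) in peritoneal arrays. Basophil markers summed to 1811 to 2451 (2 of 2 at 120) in skin and 7372 to 8736 (2 of 2 at 120) in peritoneal arrays. Their part in the serpin values was not tested. The count was 6 without peritoneal replicate 5, one of the 2 arrays with blood as source, and 4 without both.

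Blood eosinophils against blood neutrophils differed in 4 of 10 serpins tested, 3 higher and 1 lower, beside 34.3% of all probe sets (14.6% higher and 19.7% lower). Serpinb2 was at 569, 996 and 373 in eosinophils and 50.8, 55.1, 47.5 and 52.9 in neutrophils (log2 3.53 ± 0.26 (SE), adjusted p = 1.8e-08). It reached 4579 in the single array of fat eosinophils, where 3 of 4 macrophage markers were at 120. Serpinb1a was at 1053, 1081 and 1181 in eosinophils and 611, 322, 424 and 234 in neutrophils (1.56 ± 0.25 (SE), adjusted p = 1.1e-04). Every eosinophil array lay above every neutrophil array in both genes. Serpina11 was higher by log2 0.72. Serpinb10 was lower (log2 -0.91 ± 0.32 (SE), adjusted p = 0.0379), but its arrays overlapped, at 109, 57.6 and 214 in eosinophils and 274, 225, 236 and 129 in neutrophils. The fat eosinophil array was the highest group of Serpina11, at 225, and of Serpine3, at 156. Summed neutrophil markers ranged from 471 to 3601 in eosinophil arrays and from 29588 to 35139 in neutrophil arrays, and mast cell markers from 543 to 2141 in eosinophil and 314 to 374 in neutrophil arrays; their part in the result was not tested. Of the 21 target proteases tested, 8 were higher, Ctsg, Elane and Prtn3 among them, and 4 lower. Elane, encoding the neutrophil elastase that Serpinb1a inhibits, averaged 505 in eosinophils and 105 in neutrophils. These values are of RNA and do not give the protease that the cells store.

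By the rule of 4-fold over the median, T cells and thymocytes held few serpins. Their many groups weigh on each gene's median, so the rule can miss a serpin well expressed in them. Serpinb6b averaged 1166 in CD8 cells at 24 h, against a median of 436, and was not held there. Serpinb1a averaged 654 in CD24lo Vg4 thymocytes, against a median of 165, just short of 4-fold. Cytotoxic T cells carry granzymes, and Serpinb9 is the known inhibitor of granzyme B that shields the cell from its own granules. Serpinb6b and Serpinb9 were the 2 serpins held by spleen T cells. In LCMV effector CD4 cells on day 8, against naive CD4 cells, 3 of 5 serpins tested were called, all higher, beside 32.2% of all probe sets (18.7% higher and 13.5% lower). Serpinb6b was at 2504 and 2497 in effector and 256 and 324 in naive cells (log2 3.12 ± 0.16 (SE), adjusted p = 1.8e-06). Serpinb9 was at 1025 and 916 in effector and 221 and 287 in naive cells (1.94 ± 0.17 (SE), adjusted p = 4.1e-05). Serpinb6a was at 136 and 168 in effector and 82.4 and 107 in naive cells (0.69 ± 0.16 (SE), adjusted p = 0.0114). The effector arrays lay above the naive arrays in all 3. Gzmb, the target of Serpinb9, averaged 4493 in effector and 43.9 in naive cells, and of 9 target proteases tested 5 were higher and 1, Ctsl, lower. In memory CD4 cells on day 30, against the same naive arrays, 1 of 5 was called, beside 14.5% of all probe sets (8.03% higher and 6.44% lower). That was Serpinb6b, at 517 and 649.7 in memory cells (1.01 ± 0.16 (SE), adjusted p = 0.0032), and the count was 3 without naive replicate 3. Serpinb9 was at 299.6 and 376 in memory cells and was not called (adjusted p = 0.1501).

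Among OT1 CD8 effectors on day 6 of LisOVA, Tbet- against Tbet+ cells differed in 2 of 7 serpins tested, both lower, where 5.01% of all probe sets were called (2.65% higher and 2.35% lower). Serpinb9 was at 394, 388 and 432 in Tbet- and 955, 906 and 795 in Tbet+ cells (log2 -1.13 ± 0.19 (SE), adjusted p = 0.0033). Serpinb6b was at 1522, 1355 and 1668 in Tbet- and 2878, 3233 and 2953 in Tbet+ cells (-0.999 ± 0.14 (SE), adjusted p = 8.2e-04). The groups stood apart in both, and both stayed far above 120 in Tbet- cells. B cell markers summed to 1570.4 to 1749.6 (1 of 3 at 120) in Tbet- and 507 to 816 (1 of 3 at 120) in Tbet+ arrays. The summed endothelium markers lay at 1112 to 1181 (1 of 5 at 120) in Tbet- and 523 to 549 (1 of 5 at 120) in Tbet+ arrays. The part of these markers in the result was not tested. Of 12 target proteases tested, 3 were lower (Gzma, Gzmk and Gzmm) and 2 higher. Gzma averaged 509 in Tbet- and 3167 in Tbet+ cells, while Gzmb, at 4591 in Tbet- and 5667 in Tbet+ cells, was not called. Day 8 KLRG1+CD127- cells, against KLRG1-CD127+ cells, had 0 of 7 serpins called by limma and 1 at an unadjusted p under 0.05, beside 1.95% of all probe sets (0.632% higher and 1.31% lower). That was Serpinb1a, at 206 and 222 in KLRG1+CD127- and 142, 103 and 80.4 in KLRG1-CD127+ cells (log2 1.02 ± 0.25 (SE), adjusted p = 0.0562). The call was made without KLRG1-CD127+ replicate 1, without the filter, after quantile normalization, in a single fit of all arrays and with the replicate block, where the count was 1.

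Bead-stimulated T cells of the node showed Serpinb6b and Serpinb9 along a time course. In CD8 cells Serpinb6b was at 289 and 429.8 in controls, 147.3 and 198 at 1 h, 289 and 472 at 5 h, 984.8 and 1381 at 24 h, 947 and 1109.6 at 48 h and 354 at 96 h. In CD4 cells it was at 197 and 219 in controls, 114 and 157 at 1 h, 125 and 202 at 5 h, 749 and 599 at 24 h, 867 and 684 at 48 h and 369 at 96 h. Both kinds of cell were highest at 24 or 48 h. At 24 h in CD8 cells 3 of 7 serpins tested were called against controls, all higher, beside 43.3% of all probe sets (25.3% higher and 18% lower). Serpinb6b differed by log2 1.73 ± 0.28 (SE), adjusted p = 1.4e-04. Serpinb9, at 349 and 677 at 24 h and 171 and 230.2 in controls, differed by 1.29 ± 0.31 (SE), adjusted p = 0.0032. The 24 h arrays lay above the controls, but without CD8 24 h replicate 2 the Serpinb9 difference was 0.82 with an adjusted p of 0.0699 and the count was 1. Serpinc1 was the third, by log2 0.48, at levels under 120. At 48 h 2 of 7 were called in CD8 cells, both higher, beside 25% of all probe sets (15% higher and 9.98% lower). They were Serpinb6b (log2 1.54 ± 0.28 (SE), adjusted p = 7.9e-04) and Serpinb6a, at 213 and 145.4 at 48 h and 99.5 and 93.8 in controls (log2 0.86).

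In CD4 cells at 24 h 3 of 7 serpins were called, 2 higher and 1 lower, beside 53.4% of all probe sets (33.1% higher and 20.2% lower). Serpinb6b differed by log2 1.69 ± 0.28 (SE), adjusted p = 1.3e-04, and Serpinc1 and Serpine3 by 0.66 and -0.42 at levels near or under 120. At 48 h 3 of 7 were called, all higher, beside 34.5% of all probe sets (24.5% higher and 10% lower). These were Serpinb6b (log2 1.89 ± 0.28 (SE), adjusted p = 9.4e-05), Serpinc1 (log2 0.80) and Serpinb6a (log2 0.65). Serpinb9 was at 271 and 279 at 48 h and 157 and 177 in controls and was not called (adjusted p = 0.0857). The 48 h change in CD8 minus that in CD4 cells called 0 of 7 serpins by limma, with 1 at an unadjusted p under 0.05, beside 0.527% of all probe sets (0.0555% higher and 0.472% lower). For Serpinb6b that difference of differences was -0.35 ± 0.40 (SE), adjusted p = 0.8268. Gzmb averaged 831 at 48 h and 62.6 in controls in CD8 cells, and 50.1 at 48 h and 44.0 in controls in CD4 cells.

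**Figure D5:**
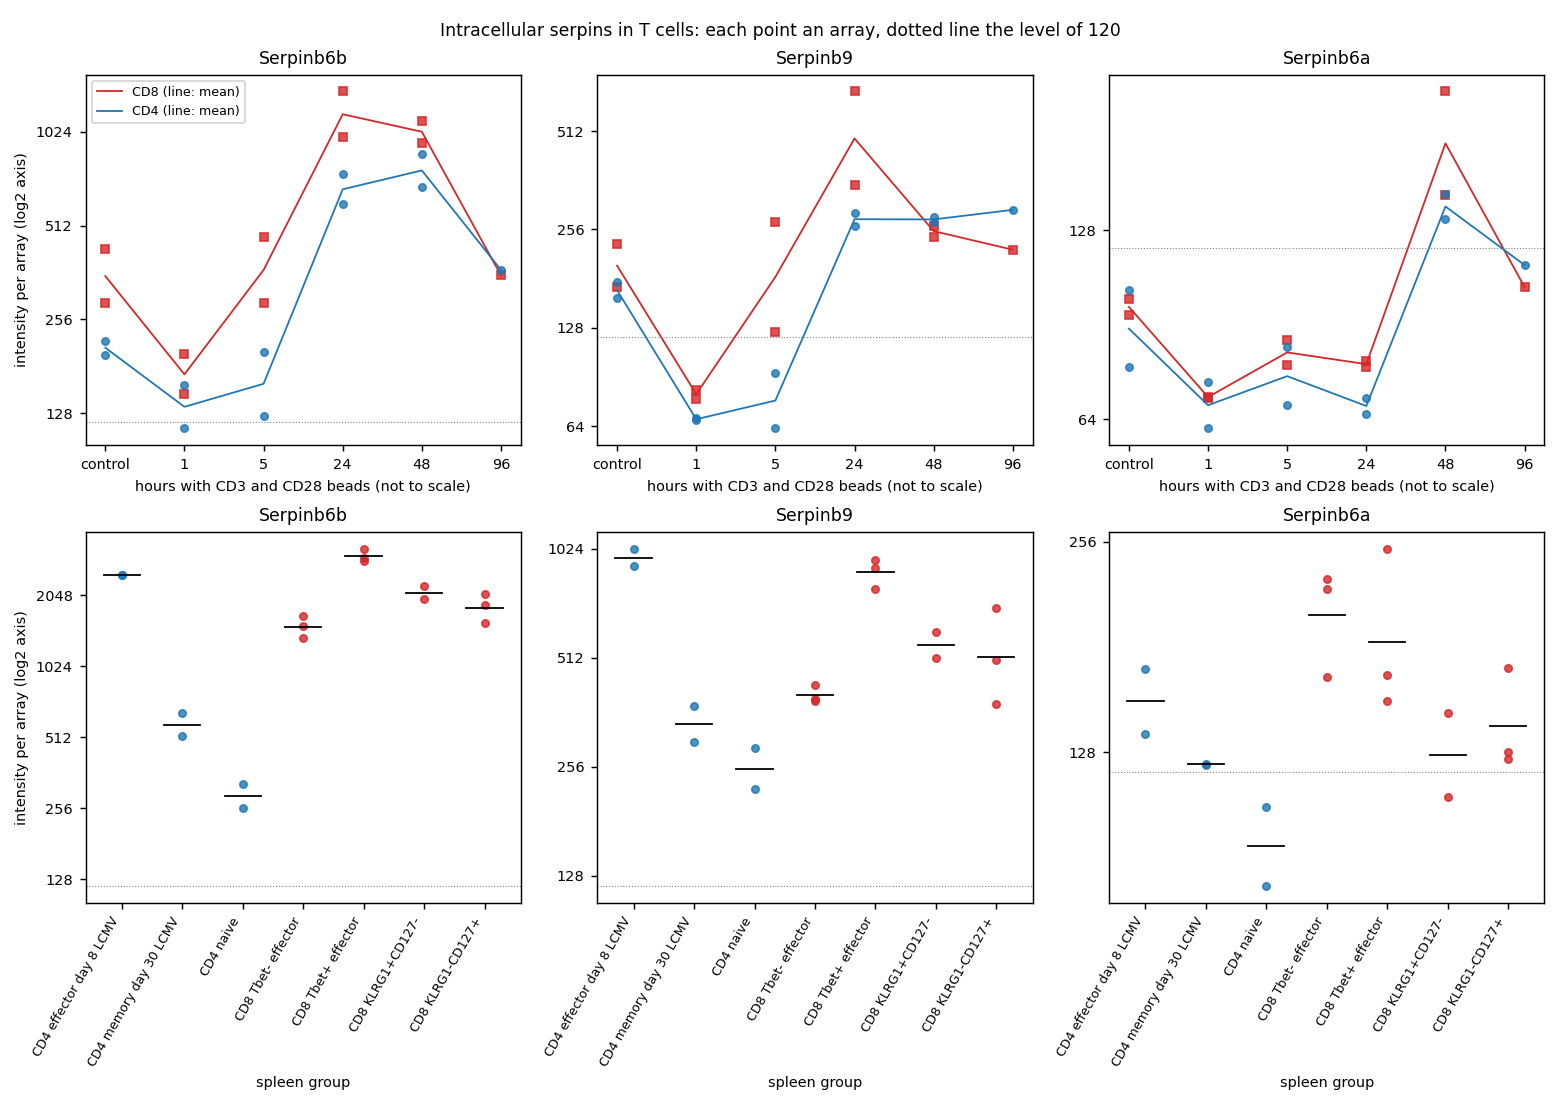
Intensity per array on a log2 axis of Serpinb6b, Serpinb9 and Serpinb6a in bead-stimulated node T cells by hours (top, lines are means) and in 7 spleen T cell groups (bottom, bars are geometric means); the dotted line is 120. The mean of Serpinb6b is lowest at 1 h, where the CD4 arrays overlap those at 5 h, and highest at 24 or 48 h. Tbet+ effectors lie above Tbet- effectors for Serpinb6b and Serpinb9.

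Serpinb1a differed between subsets of gamma delta thymocytes. In CD24lo against CD24hi Vg4 thymocytes 3 of 5 serpins tested were called, all higher, beside 18.8% of all probe sets (6.94% higher and 11.8% lower). Serpinb1a was at 681 and 628 in CD24lo and 83.1, 65.9 and 57.1 in CD24hi cells (log2 3.27 ± 0.14 (SE), adjusted p = 1.6e-12), so both CD24lo arrays and no CD24hi array reached 120. Serpinb6a was at 212 and 242 in CD24lo and 126, 113 and 149.6 in CD24hi cells (0.81 ± 0.15 (SE), adjusted p = 5.2e-04). Serpinf1 was higher by log2 0.41. Mast cell markers summed to 555 to 606 (2 of 5 at 120) in CD24lo and 4564 to 4985 (2 of 5 at 120) in CD24hi arrays. Endothelium markers summed to 518 to 557 (1 of 5 at 120) in CD24lo and 1091 to 1222 (1 of 5 at 120) in CD24hi arrays. What part these markers had was not tested. Serpinb6b was not called, at 503 and 465 in CD24lo and 569.6, 505 and 543 in CD24hi cells. CD24hi Vg2 against CD24hi Vg4 cells had 0 of 5 serpins called by limma and 1 at an unadjusted p under 0.05, beside 0.774% of all probe sets (0.21% higher and 0.564% lower). That was Serpinb1a, at 50.8, 50.9 and 41.2 in Vg2 and 83.1, 65.9 and 57.1 in Vg4 cells (log2 -0.52 ± 0.12 (SE), adjusted p = 0.0578), and it was called, with a count of 1, after quantile normalization, with the replicate block and without Vg4 CD24hi replicate 3. Among double positive thymocytes Serpinb1a was at 33.8, 39.9 and 31.7 in CD69+ cells of 6 weeks, 31.6, 32.3 and 36.0 in CD69- cells of 6 weeks and 33.0, 31.7 and 32.4 in CD69- cells titled embryonic day 17. Serpinb6b was at 313, 211 and 185 in the CD69+ cells, 317, 393 and 262 in the CD69- cells of 6 weeks and 519, 430.4 and 450.3 in those titled embryonic day 17. All 3 groups lay under 120 for Serpinb1a and above it for Serpinb6b.

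The 19 serpins that did not reach 120 in any group were Serpina12, Serpina16, Serpina1f, Serpina3a, Serpina3b, Serpina4-ps1, Serpina5, Serpina6, Serpinb13, Serpinb1b, Serpinb1c, Serpinb3d, Serpinb6c, Serpinb6d, Serpinb6e, Serpinb9c, Serpinb9d, Serpinb9e and Serpini2. Their highest group means ran from 21.6 (Serpinb9d) to 110.4 (Serpinb6c). Serpina6, the corticosteroid-binding globulin of liver, averaged 85.9 in F4/80int liver macrophages, its highest group. Serpinb6c was highest in Sca1+ CEC cells, at 81.4 and 149.8. A dim probe set does not show that a gene is absent. A further 3 probe sets annotated to several of Serpinb9d to Serpinb9g at once, which are no members, peaked at 48.9 to 65.4.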

How the data were processed

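Affymetrix array intensities were used as deposited by the authors. Per the submitters' processing notes they were made with RMA in Affymetrix Power Tools; tool versions and the genome build were not stated there. The deposited intensity values are linear, and their log2 was taken. Gene symbols came from the platform annotation: of 24922 probe sets, 21425 had 1 symbol, 1399 several and 2098 none here. Serpin genes without a probe set of their own symbol were not analysed here.

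Groups followed the sample titles. For 25 comparisons, limma 3.58.1 (R 4.3.3; lmFit, eBayes) fitted 1 mean per group on log2 intensity within each fit, without a block. Probe sets were tested where some group of the fit averaged at least the median of all its values. P-values were Benjamini-Hochberg adjusted over all probe sets of the fit, with a threshold of 0.05. The fit was tested on simulated data. The precision is limited by the number of arrays, 1 to 4 a group. All 48 serpins are accounted for. Per-array values are given where a called difference was at least 2-fold, for at most 6 serpins a comparison, and for further genes chosen after their values were seen. The members and lists were chosen with earlier results of these data known. Same-numbered arrays deviated together in GFP+ and GFP- MEChi cells (r 0.52, 0.47 and 0.20) and in liver macrophages (0.47, 0.13 and 0.18). They did so too in CD8 cells at 24 h and controls (0.60). Other comparisons gave values from -0.63 to 0.24. Whether the number pairs the arrays is not established, and the main fits used no block. Alternatives tried were no filter, quantile normalization, log2 of intensity plus 32, 1 fit of all arrays, a replicate block and leaving out each array.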

Additional observations from a re-analysis of the deposited data

How the results depend on the processing

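Counts of called serpins moved by over 1.5 times as follows. Without the filter on dim probe sets they were 5 (CD4 24 h), 5 (LCMV effector), 2 (LCMV memory), 1 (KLRG1+CD127-), 25 (MEChi against MEClo), 31 (CEChi against MEChi), 22 (GFP+), 22 (KO) and 9 (eosinophils); more probe sets were tested there. After quantile normalization they were 1 for KLRG1+CD127- and 1 for Vg2 cells. In a single fit of all arrays they were 1 for KLRG1+CD127-, 1 for FRC after CFA and 5 for skin mast cells. With the replicate number as a block they were 1 for KLRG1+CD127-, 1 for Vg2 cells and 4 for fat macrophages; no other count moved past that limit. Leaving out 1 array gave 1 to 3 for CD8 24 h, 1 to 3 for LCMV memory, 0 to 1 for KLRG1+CD127-, 0 to 1 for Vg2 cells, 1 to 3 for Gata6ko, 2 to 5 for F4/80hi liver, 3 to 6 for fat macrophages and 2 to 6 for skin mast cells. The cause was not tested. Of 65 results for single serpins, all 65 kept their call without the filter, after quantile normalization, with 32 added and in the single fit, as did 47 of 47 with the block. Of 334 with an array left out, 11 lost the call and 0 reversed. Those 11 belong to Serpinb9 (CD8 24 h), Serpinb10 and Serpinb2 (fat macrophages), and Serpinb2 and Serpinb8 (fat CD11b+ dendritic cells). Chosen after seeing the data, crossed replicate numbers gave 14 and 18 calls for MEChi against MEClo and CEChi against MEChi. The count of expressed serpins was 24 at a level of 200. Dixon's test found 0 arrays standing apart in 5 sets of values from groups of 4.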
